A study of Mus musculus with 39 samples.

Results

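CpG-dense 200 bp tiles of the mouse genome were examined in embryonic stem cells (mESC) and liver, with and without p53, the transcription factor and tumour suppressor encoded by Trp53. A tile was taken as CpG-dense when at least 5 of its CpG sites were listed in the table of single CpGs, which gave 20673 of 120722 tiles (17.1%). These tiles held 171494 of the 330387 listed CpGs (51.9%), with a median of 7 and a maximum of 30 per tile, and lay on 20 chromosomes. The count is of sites listed in the table, and it was not checked against an annotation of CpG islands. The choice used position only and no methylation value. Neighbouring dense tiles with starts at most 1000 bp apart were joined into 10987 runs, of which 5442 were a single tile and the longest held 10 tiles.

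CpG islands are stretches of DNA with many CpG sites, and many gene promoters lie in them. Most CpGs of the mammalian genome are methylated, while islands are typically kept free of methylation, in part by chromatin features that repel the DNA methyltransferases. Naive mESC cultured with 2i inhibitors are known for low methylation across the genome, and differentiation brings methylation up through the de novo enzymes Dnmt3a and Dnmt3b. TET enzymes oxidise 5-methylcytosine (5mC) to 5-hydroxymethylcytosine (5hmC).

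The mESC were derived from day 2.5 morulas of matings between mice heterozygous for the allele 129s-Trp53tm2Tyj/J, which gave wild-type (WT) and p53-null cells from the same kind of mating. They were kept on irradiated mouse embryonic fibroblast feeders in 2i medium with LIF, and are called naive here. The RA-treated cells had their feeders depleted on gelatin and then received 1 µM retinoic acid (RA), replenished daily for 4 days. Liver came from male WT and p53-null offspring of heterozygous parents at 16 weeks. Reduced representation bisulfite sequencing (RRBS) sequences fragments cut by MspI, which favours CpG-rich DNA, and reads 5mC and 5hmC together, called total methylation here. Its oxidative form (oxRRBS) reads 5mC alone. The series has 39 libraries. RRBS was made from 5 WT and 3 p53-null naive libraries, 5 WT and 4 p53-null RA-treated libraries, and 3 libraries of each genotype from liver. With oxRRBS there were 5 WT and 3 p53-null naive libraries, and 4 of each genotype after RA. The labels name neither the number of lines nor which libraries shared one.

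The deposited tables give 1 pooled value per group for each CpG or tile. Read depth and the spread between libraries are therefore unknown, no value below has an SD or an n of libraries, and no difference could be set against library-to-library variation. The SD over chromosomes is given as a description of the genome within a pooled group. mESC levels are the mean of the listed CpGs of a tile. Liver levels come from another table, of 200 bp tiles, whose 2 columns headed only by genotype were taken as liver because the labels assign that table to the liver libraries alone. The heading names no tissue, and the tables may differ in processing, so every difference between liver and mESC crosses tables. Of the dense tiles, 20492 were found in the tile table, 20067 had a value for WT liver, 19685 for p53-null liver and 19625 for both.

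Dense tiles were nearly free of methylation in all 6 groups. The mean level was 0.962% in naive WT cells (SD 0.204 over chromosomes) and 1.15% in naive p53-null cells (SD 0.211). After RA it was 1.82% with p53 (SD 0.259) and 1.69% without it (SD 0.246). In liver it was 3.59% in WT (SD 0.756) and 3.601% in p53-null animals (SD 0.642). The group means were thus ordered naive, RA-treated, liver in both genotypes, while the medians barely differed, at 0.333, 0.333, 0.400, 0.400, 0.337 and 0.410% in the same order of groups. Tiles with 1 to 4 listed CpGs had means of 24.4 and 31.6% in naive WT and p53-null cells, 39.3 and 36.6% after RA, and 54.2 and 53.2% in liver. At the limit of the rule itself, tiles with 4 listed CpGs (6216) had a mean of 4.42% in naive WT cells, 9.03% in RA-treated WT cells and 16.1% in WT liver, and tiles with 5 (4573) had 2.18, 4.37 and 8.33%.

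The differences between group means came mostly from a small minority of tiles. In naive cells, 217 dense tiles (1.05%) were at 20% or more in WT and 264 (1.28%) in p53-null cells. After RA the counts were 471 (2.28%) and 436 (2.11%), and in liver 815 (4.06%) and 771 (3.92%). The tiles at 20% or more carried 38.3% of all methylation summed over dense tiles in naive WT cells, 56.3% in RA-treated WT cells and 75.3% in WT liver. Without them the means were 0.599, 0.815 and 0.925%. High levels were mainly a feature of liver, where 376 dense tiles of WT and 359 of p53-null animals reached 80%, against 1 to 4 tiles in each of the mESC groups. Of the 19625 dense tiles with both liver values, 17640 were under 5% in all 6 groups, 182 were at 20% or more in all 6, and 853 reached 20% in at least 1.

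Methylated dense tiles were mostly the less dense and the isolated ones. The share at 20% or more in RA-treated WT cells was 6.78% of tiles with 5 listed CpGs, 2.15% with 6 to 7, 0.576% with 8 to 9, 0.0300% with 10 to 12 and 0.0406% with 13 or more. In WT liver the shares along the same series were 9.998, 4.35, 1.67, 0.893 and 0.621%. At a fixed number of CpGs the share was also higher in isolated tiles, in RA-treated WT cells and in WT liver. The gap in points narrowed up to 10 to 12 listed CpGs and was wider again at 13 or more. Of the tiles with 5 listed CpGs, 18.4% of those with no dense neighbour within 1000 bp were at 20% or more in RA-treated WT cells, against 0.505% of those in a run of 2 or more. In WT liver these shares were 24.8 and 2.00%. With 10 to 12 listed CpGs they were 1.07 and 0.848% there, and with 13 or more 1.85 and 0.393%.

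**Figure D1:**
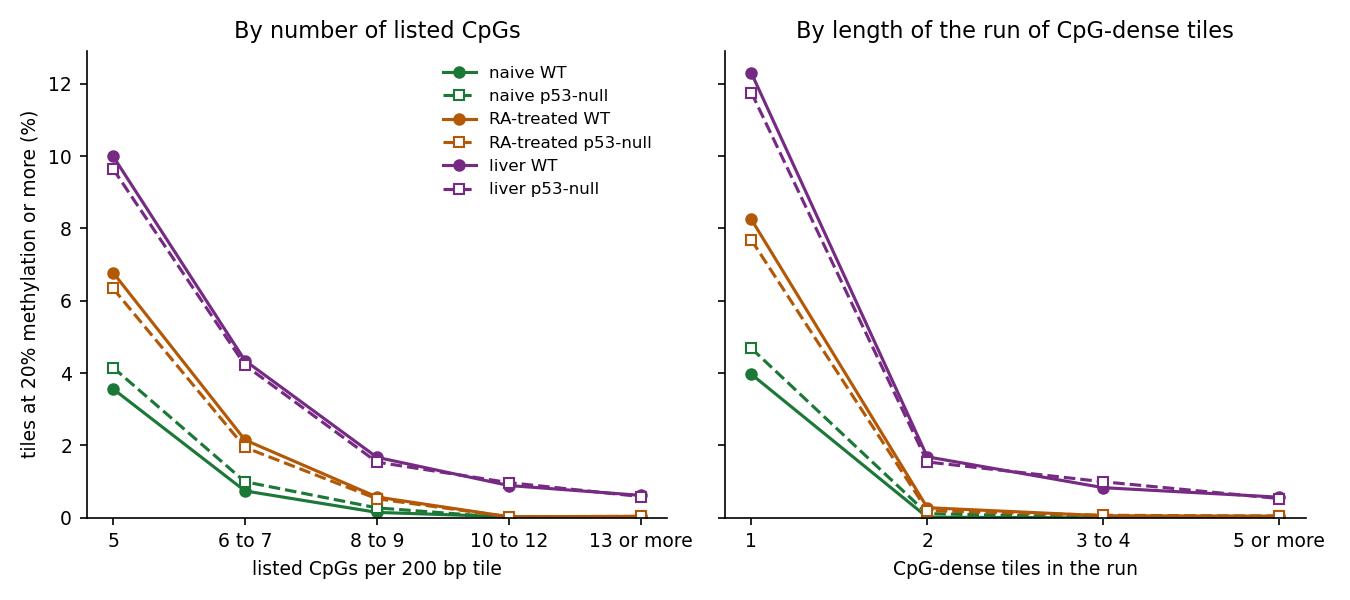
Share of CpG-dense tiles at 20% total methylation or more (y axis, %), by the number of listed CpGs per tile (left) and by the number of dense tiles in the run (right), for WT (filled circles) and p53-null (open squares) naive, RA-treated and liver groups. All 6 lines are highest at 5 listed CpGs and at runs of 1 tile. For RA-treated WT cells the share is 8.25% in single tiles and 0.281% in runs of 2.

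Over the mean of the 4 mESC columns, 351 dense tiles were at 20% or more, and 343 of them (97.7%) stood alone, compared with 26.3% of all dense tiles. Over both liver columns 779 tiles were at 20% or more and 611 (78.4%) stood alone. Liver methylation therefore reached further into runs of dense tiles: 98 runs of 2 or more held a methylated tile in liver, and in 47 of these every tile was methylated, against 6 and 2 runs in mESC. Whether isolated tiles differ from tiles in runs in read coverage was not tested.

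Most methylated mESC tiles had methylation at every listed CpG, though the level differed between CpGs. These tiles were chosen on the mean over their CpGs, which largely excludes tiles with a single methylated site. Their ranges therefore cannot decide whether methylation in dense tiles was spread or placed on single sites. Among the tiles at 20% or more, the highest and the lowest CpG of a tile differed by a median of 28 points in naive WT, 29 in naive p53-null, and 31 and 28 in the RA-treated WT and p53-null groups. Every listed CpG was at 10% or more in 87.1 to 90.4% of these tiles, depending on the group. Among dense tiles under 20%, a CpG at 50% or more was found in only 2, 3, 2 and 1 tiles of the 4 groups. Single sites with lower levels were not counted there.

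The most methylated dense tile in mESC was chr15:100374201-100374400 (mm9), with 5 listed CpGs. Naive WT and p53-null cells had 86.6 and 91.0%, RA-treated WT and p53-null cells 90.2 and 84.2%, and liver 94.6% in either genotype. It was thus near full methylation in every group, including the naive cells. The tile with most listed CpGs at 20% or more in all groups was chr8:107117801-107118000, with 9. It stood at 21 and 45.3% in naive WT and p53-null cells, 49.0 and 51.8% after RA, and 83.5 and 81.0% in liver, so naive WT cells were the lowest group. No gene or feature was assigned to these tiles, since the gene reference at hand is on another build than mm9.

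The comparison of genotypes in naive cells asks whether loss of p53 changes methylation in the naive state, the state in which the series places a role for p53. Over all dense tiles the level was 0.185 points higher in p53-null cells (SD 0.0684 over chromosomes), and it was higher on 20 of 20 chromosomes. The median difference was 0. With 1 tile per run the mean difference was 0.319 points, and with at least 8 or 10 listed CpGs 0.0362 or 0.0107 points. The level was higher by 10 points or more in 144 dense tiles and lower by that much in 15, which is 0.697 and 0.0726% of them. Over all tiles with a listed CpG the shares were 28.8 and 2.99%, so large differences were far rarer in dense tiles than in the background. The authors' deposited table gives q-values for 2 sets of columns that name no cell state. Levels of the first set differed from the naive columns of the CpG table by a median of 0.128 points in WT over 17705 dense tiles, and from the RA-treated column by 0.333 points. In this first set, the authors' deposited table called 119 dense tiles higher in p53-null and 7 lower at q under 0.05 and 10 points or more (0.672 and 0.0395%), against 28.1 and 0.786% of all its tiles.

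The naive difference lay mostly in dense tiles that were methylated after RA. To keep the choice apart from the values read, 455 dense tiles were taken that were at 20% or more in RA-treated cells, on the mean of both genotypes. Their mean level in naive cells was 22.1% with p53 and 28.2% without it, a difference of 6.11 points. Over the 19727 dense tiles under 5% after RA the difference was 0.0332 points. Of the 455, the level was higher in 357 and lower in 93, by 10 points or more in 139 and 10. Of the 64844 tiles with 1 to 4 listed CpGs chosen in the same way, it was higher in 51628 and lower in 11645. By 10 points or more these were 33616 and 3327, so the direction was not particular to dense tiles. In the first set of the authors' deposited table, 109 of the 380 dense tiles at 20% or more in the other set were called higher (28.7%) and 4 lower, while of the 16695 tiles under 20% there, 5 were called higher and 2 lower. The share called higher among methylated dense tiles was close to the 28.1% over all tiles of that table, but those were not chosen by level. Calls among sparser tiles chosen by level were not counted.

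Tiles with 1 to 4 listed CpGs, chosen in the same way, had 36.7 and 47.5% in naive WT and p53-null cells, a difference of 10.7 points. At matched levels from 20 to 80% after RA the dense tiles were still lower in naive cells, while at 80% or more (3 dense tiles) they were higher, at 66.3 and 79.7% against 63.9 and 75.02%. Dense tiles at 40 to 60% after RA (158) had naive levels of 25.2% in WT and 32.8% in p53-null cells, against 30.6 and 42.1% in the sparser tiles of that class. The p53-null minus WT difference was 7.59 points in the dense and 11.5 points in the sparser tiles, and it was smaller in the dense tiles on 20 of 20 chromosomes. At 20 to 40% after RA the differences were 3.36 and 6.68 points, smaller in the dense tiles on 18 of 20 chromosomes, and at 60 to 80% they were 10.2 and 12.1 points, smaller on 12 of 20. Liver levels of the 40 to 60% class went the other way, at 84.1% in dense and 77.0% in sparser tiles of WT, with the dense tiles higher on 17 of 20 chromosomes.

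**Figure D2:**
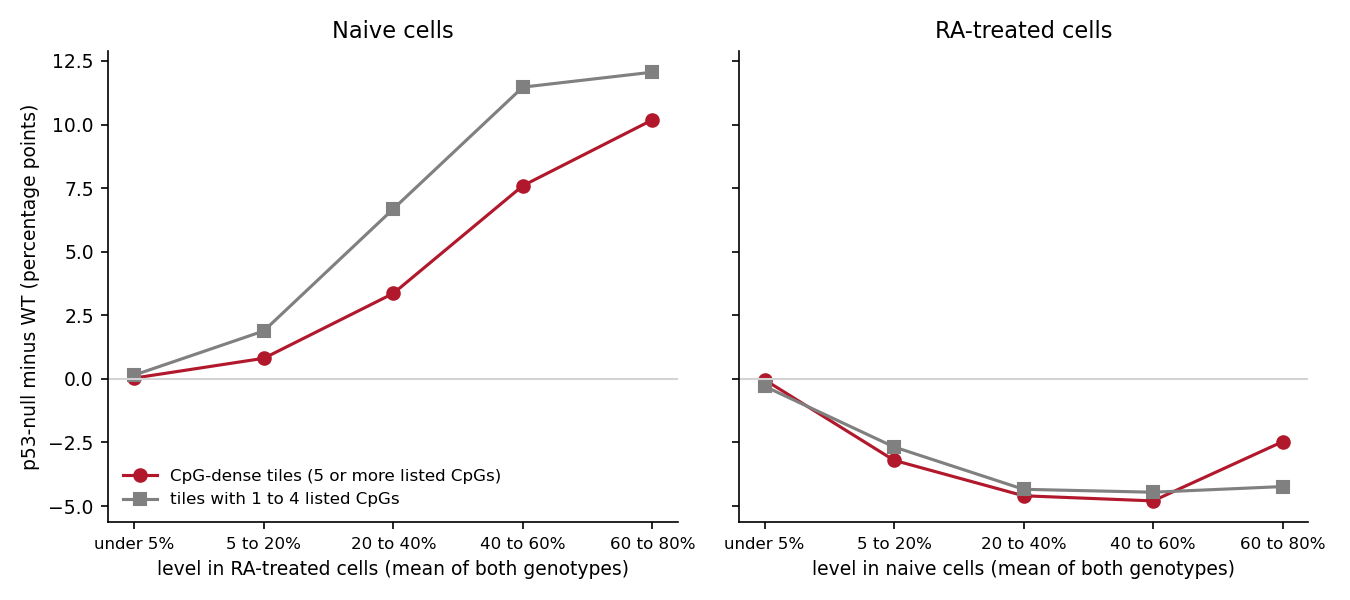
Mean p53-null minus WT difference (percentage points) in naive cells by level after RA (left) and in RA-treated cells by level in naive cells (right), for CpG-dense tiles (red circles) and tiles with 1 to 4 listed CpGs (grey squares). In naive cells the dense tiles lie below the sparser ones in each of the 5 classes drawn, all under 80%, with 7.59 against 11.5 points at 40 to 60%. After RA both lie under 0 in each class drawn.

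Single tiles showed how far the naive levels could part. The dense tile chr3:19020201-19020400, with 6 listed CpGs, stood at 45.3% in naive WT and 71.3% in naive p53-null cells, then at 70.7% in both genotypes after RA and at 93.7 and 98.5% in liver. In the authors' deposited table its first-set difference was 31.8 points with q = 6.02e-11. The naive p53-null level was therefore close to the level after RA, while naive WT was the mESC group that stood apart. At chr4:48863201-48863400 naive p53-null cells were the highest of the mESC groups instead: 63.4% in naive WT and 87.0% in naive p53-null cells, then 69.6 and 66.2% after RA. The authors' deposited table gave that tile a first-set difference of 21.6 points with q = 2.54e-12. The 144 dense tiles higher by 10 points or more in naive p53-null cells, chosen on that difference, had 52.1% after RA in WT and 48.8% without p53. They were lower without p53 in 101 cases and higher in 40. That direction was not particular to them. Of the 246 dense tiles at 20% or more in naive cells, on the mean of both genotypes, 186 were lower without p53 after RA and 56 higher.

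After RA the genotype difference had the opposite sign. Over all dense tiles p53-null minus WT was -0.132 points (SD 0.0893 over chromosomes). It was under 0 on 19 of 20 chromosomes, and on the X it was 0.135 points. It was -0.247 points with 1 tile per run, -0.0147 points with at least 8 listed CpGs, and turned to 0.00285 points with at least 10. By 10 points or more, 105 dense tiles were lower and 13 higher, or 0.508 and 0.0629% of them, against 16.9 and 6.02% of all tiles with a listed CpG. Among second-set values, 67 dense tiles were called lower in p53-null and 11 higher in the authors' deposited table, or 0.351 and 0.0576% of 19095, against 3.65 and 0.481% of all its tiles. The levels of this second set lay nearest the RA-treated columns, with a median difference of 0.157 points in WT and of 0.336 points from the naive column.

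The difference per tile was again larger in tiles with methylation. The 246 dense tiles at 20% or more in naive cells, on the mean of both genotypes, stood after RA at 56.5% with p53 and 51.9% without it, a p53-null minus WT difference of -4.52 points. It was -3.20 points over the 296 dense tiles at 5 to 20% in naive cells and -0.0336 points over the 20131 under 5%, and the many tiles of these lower classes carried much of the sum. Among the 246, the level was lower in 186 and higher in 56. All 246 were at 20% or more in both RA-treated columns. Of the 53260 tiles with 1 to 4 listed CpGs chosen in the same way, 34309 were lower without p53 and 17225 higher. After RA, 99.3% of them were at 20% or more with p53 and 99.2% without it. Neither the direction nor the high levels were thus particular to dense tiles. The mean p53-null minus WT difference of these sparser tiles was -4.33 points, so the size of the RA difference was similar at both densities. Within the 20 to 40% class of naive levels the difference was the more negative in dense tiles on 11 of 20 chromosomes. No test of the naive against the RA-treated genotype difference could be made.

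Some dense tiles parted from this pattern. At chr11:117220801-117221000 the genotypes were alike in naive cells, at 25.6 and 24.8%, and apart after RA, at 59.4% with p53 and 35.2% without it. The authors' deposited table gave a second-set difference of -25.8 points with q = 6.06e-08. RA-treated WT cells were thus the only mESC group above 50% there. The dense tile chr17:36024801-36025000 was the higher without p53 before and after RA, with 1.80 and 18.4% in naive and 13.8 and 38.2% in RA-treated cells, and liver at 86.1 and 96.5%. At chr2:103936201-103936400 the level without p53 was again the higher one in each state, at 43.6 against 23.4% in naive and 50.8 against 24.6% in RA-treated cells, but liver was low, at 14.4 and 11.4% in WT and p53-null animals. For the last tile the authors' deposited table gave differences of 19.3 points in the first set and 26.7 in the second.

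**Figure D3:**
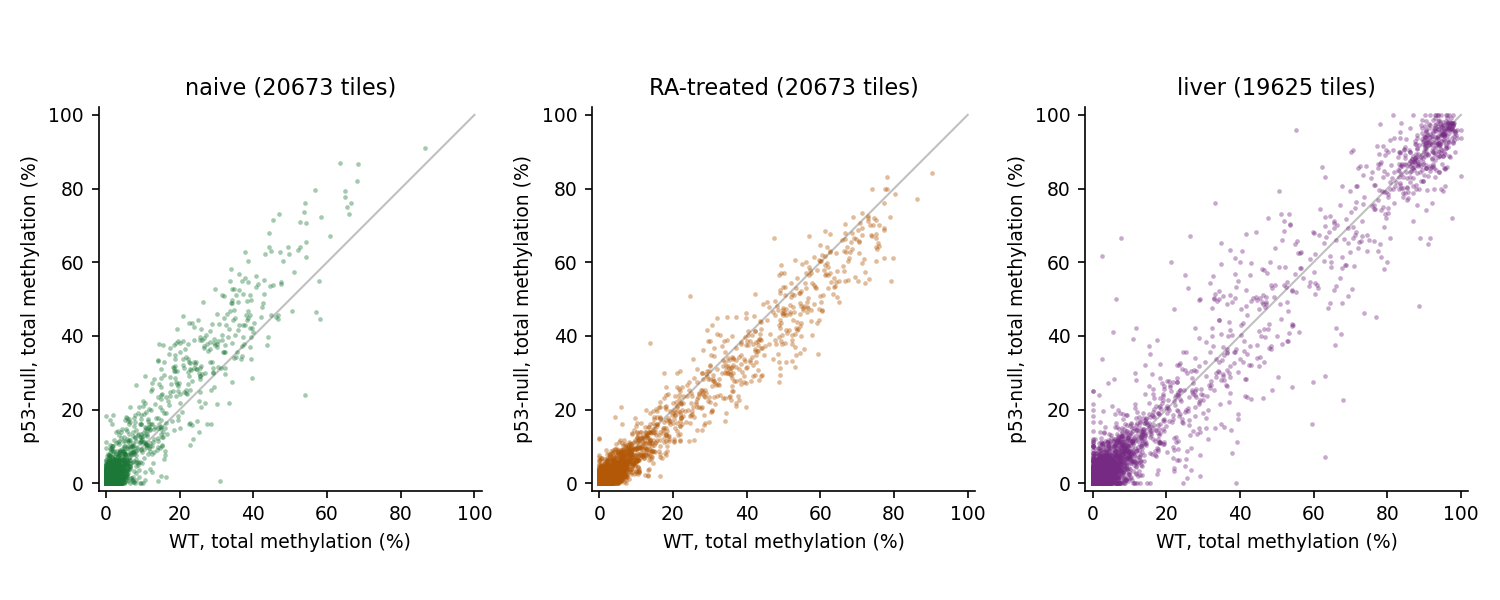
Total methylation (%) of each CpG-dense tile in WT (x axis) against p53-null (y axis) for naive cells, RA-treated cells and liver, with the line of equality in grey. Above 20% the naive points lie mostly over the line and the RA-treated points mostly under it, while the liver points lie on both sides and reach 100%.

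In liver the genotypes had nearly the same level over dense tiles. The mean difference was 0.0643 points (SD 0.109 over chromosomes, which is not a spread between libraries), with 14 chromosomes higher and 6 lower. It was 0.0372 points with 1 tile per run and 0.0989 points with at least 10 listed CpGs. By 10 points or more, 128 dense tiles were higher in p53-null liver and 129 lower, or 0.652 and 0.657%, against 9.08 and 9.59% of all tiles with a listed CpG. Of the 455 dense tiles methylated after RA, 433 had a value in WT liver, with a mean of 79.2%, and 417 in p53-null liver, with 78.8%. Of the 414 with both, 209 were higher and 205 lower in p53-null. Higher and lower tiles were thus about equal in number. The largest differences each way included tiles that were low in mESC. At chr13:51740601-51740800, with 11 listed CpGs, WT liver was at 7.84% and p53-null liver at 66.7%, while the mESC groups were between 0 and 1.91%. At chr17:23939601-23939800 WT liver was at 63.0% and p53-null liver at 7.14%, with the mESC groups between 0 and 2.60%. The number of reads behind these 2 values, and whether 1 animal set them, is unknown.

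A small set of dense tiles had higher methylation after RA than in naive cells. The mean was higher by 0.860 points with p53 (SD 0.157 over chromosomes) and by 0.542 points without it (SD 0.104), on 20 of 20 chromosomes in both. In WT, 550 dense tiles were higher by 10 points or more and 3 lower, or 2.66 and 0.0145%, against 46.6 and 1.39% of all tiles with a listed CpG. In p53-null cells 375 were higher and 14 lower, or 1.81 and 0.0677%, against 26.1 and 9.18%. The 2 genotypes share no mESC library in these comparisons, but each RA difference shares its naive column with the genotype difference above, so a higher naive p53-null level enters both.

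The largest increase in WT was at chr15:100622001-100622200, where naive WT and p53-null cells had 14.2 and 33.4% and RA-treated ones 72.0 and 57.4%. RA-treated cells were the higher state in both genotypes, with the wider gap in WT. At chr15:88543001-88543200, with 6 listed CpGs, both genotypes were at 5.50% in naive cells and were at 52.7 and 47.8% after RA. Liver was at 98.4 and 89.8% there. This tile was therefore low in naive cells, intermediate after RA and high in liver, with the genotypes close to each other in each mESC state. The dense tile chr9:96064401-96064600, with 8 listed CpGs, had 5.25% in naive and 53.3% in RA-treated WT cells, against 17.1 and 31.6% without p53.

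Dense tiles fell into few patterns over naive cells, RA-treated cells and liver. With each taken as the mean of both genotypes and 20% as the limit, 18824 of the 19625 tiles with both liver values were under the limit in all 3 (95.9%), and 223 were over it in all 3. A further 169 were over it after RA and in liver, and 387 in liver alone. Only 16 were over it after RA alone and 6 in both mESC states but not in liver. No tile was over it in naive cells and under it after RA. Apart from these 16 and 6, a tile over the limit in one was over it in each later member of the order naive, RA, liver. The tiles methylated in liver alone had a median of 6 listed CpGs, stood alone in 61.0% of cases and had a mean liver level of 49.3% in WT, while those methylated in all 3 stood alone in 97.8% of cases, at 85.0%.

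Liver exceeded naive cells by 2.64 points with p53 (SD 0.601 over chromosomes) and 2.47 points without it (SD 0.478), across the 2 tables. In WT 978 dense tiles were higher by 10 points or more in liver and 7 lower. These were 4.87 and 0.0349% of them, against 53.5 and 2.21% of all tiles with both values. In p53-null the counts were 952 and 10, or 4.84 and 0.0508%, against 47.4 and 4.27%. Liver exceeded RA-treated cells by 1.80 points with p53 and 1.96 without it. In WT 892 dense tiles were higher and 54 lower, or 4.45 and 0.269%, against 44.1 and 6.59% of all tiles. In p53-null they were 884 and 40, or 4.49 and 0.203%, against 45.9 and 5.74%. The dense tiles lower in liver were few. At chr4:148434001-148434200 the mESC levels were 53.8, 73.6, 73.0 and 72.0% in naive WT, naive p53-null, RA-treated WT and RA-treated p53-null cells, and WT and p53-null liver were at 39.6 and 18.8%. At chr10:76553801-76554000 mESC levels were 66.4, 76.0, 78.2 and 80%, and liver was at 44.6 and 37.6%. Both tiles were among the more methylated in mESC and lower in liver of both genotypes.

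Among dense tiles under 5% in naive cells, the level after RA was ordered by the level in liver. The 18162 such tiles that were also under 5% in liver had a median of 0.389% after RA. The median was 1.90% for those at 5 to 20% in liver (634 tiles), 2.00% at 20 to 40% (157), 3.7% at 40 to 60% (85), 5.18% at 60 to 80% (44) and 11.9% at 80% or more (48). In the last class 39 of 48 tiles (81.3%) had reached 5% after RA, against 0.661% in the first. The mean after RA in that class was 13.1% with p53 and 11.96% without it, so both genotypes showed it. The naive medians also went from 0.333% in the first class to 2.40% in the last, and the share of tiles standing alone from 23.2 to 72.9%. Their part in the order was not tested. Tiles with 1 to 4 listed CpGs showed the same order, with a median of 0.5% after RA in the first class and 17.5% in the last.

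**Figure D4:**
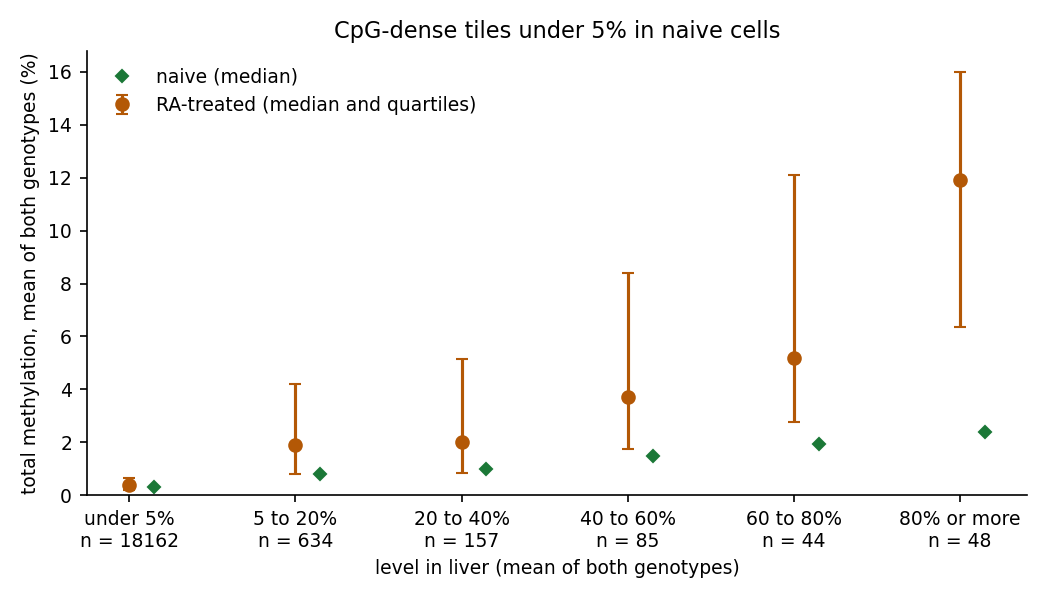
Level after RA (orange, median with quartiles) and in naive cells (green, median) of CpG-dense tiles under 5% in naive cells, by their level in liver (x axis, mean of both genotypes, number of tiles below each class). The RA median goes from 0.389% in tiles under 5% in liver to 11.9% in tiles at 80% or more.

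The dense tile with the widest gap between naive cells and liver, on the mean of both genotypes, was chr8:64028401-64028600, with 9 listed CpGs. It was at 0.333 and 0.667% in naive WT and p53-null cells, 11.9 and 9.33% after RA, and 96.6 and 96.2% in liver. At chr3:153568801-153569000, with 8 listed CpGs, the values were 0.375 and 0.875%, 15.1 and 14.0%, and 96.1 and 94.4%. In both tiles the groups were ordered naive, RA, liver, and the genotypes were close within each.

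The surroundings of dense tiles differed with their state. Around the 18121 dense tiles under 5% in mESC and liver, WT liver was at 1.49% over the tiles 200 to 400 bp away, 19.95% at 1000 to 2000 bp and 41.5% at 2200 to 3000 bp. Around the 325 dense tiles at 20% or more in mESC, WT liver was at 80.4, 74.8 and 64.8% over the same distances, with no drop at the dense tile. The 239 dense tiles under 5% in mESC and at 20% or more in liver lay between, at 42.4, 46.1 and 55.2%. The same order held in mESC: in the first set of the tile table, WT flanks at 200 to 400 bp were at 0.578% around unmethylated and 26.6% around methylated dense tiles, and p53-null flanks at 0.730 and 34.7%. Tiles of the liver class had mESC flanks of 2.12% in WT and 2.61% in p53-null, near those of unmethylated tiles. Flanking values exist only where RRBS read a tile, and neighbours can share fragments, so the flanks are not independent of the centre. The classes also differ in the density of their flanks. Of the dense tiles at 20% or more in mESC 97.7% stood alone, against 26.3% of all dense tiles. Near flanks of unmethylated dense tiles are thus more often dense tiles themselves, and the part of density in these contrasts was not tested.

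**Figure D5:**
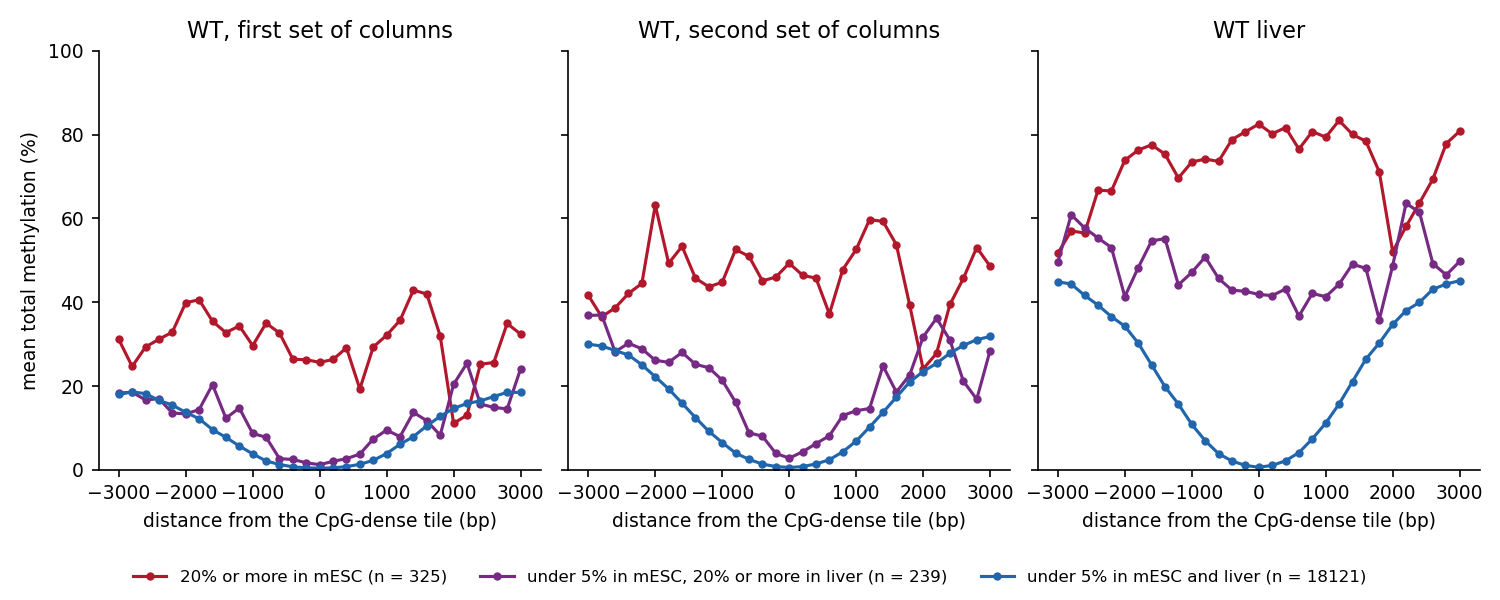
Mean total methylation (%) of 200 bp tiles by distance (bp) from a CpG-dense tile in WT, in the first and second set of columns of the tile table and in liver, for dense tiles at 20% or more in mESC (red), under 5% in mESC but at 20% or more in liver (purple) and under 5% in both (blue). Blue lines form a trough that reaches 1.49% in liver at 200 to 400 bp. The red line has none in liver, while in the first set it lies at 26.6% at 200 to 400 bp against 35.0% at 1000 to 2000 bp. The red points from 600 bp outwards and the purple points beyond 1000 bp rest on few tiles each. In the first set these red points hold 9 to 25 tiles. At the dense tile itself, the levels follow in part from the choice of class.

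The tile table also gives 5mC from oxRRBS, and total methylation minus 5mC was taken as 5hmC. In the first set, the 380 dense tiles at 20% or more in the other set had a total of 22.5% in WT, split into 11.1% 5mC and 11.4% 5hmC, so that 5hmC made up 50.7% of the total. In p53-null cells the total was 28.9%, with 16.5% 5mC and 12.5% 5hmC (43.1%). The genotype difference was therefore 5.37 points in 5mC and 1.04 points in 5hmC. Sparser tiles chosen in the same way had nearly the same 5hmC level, 11.4% in WT and 11.6% in p53-null, on a higher total, and a smaller share of 5hmC at 32.3 and 25.5%.

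At matched levels from 5% up the dense tiles had the larger share of 5hmC in both genotypes of the first set. Under 5% they had the smaller share, 18.9 against 25.9% in WT. In the class of 40 to 60% by second-set level, the first-set WT level of 139 dense tiles was 26.5% in total and 13.3% in 5hmC, a share of 50.03%. The 20325 sparser tiles of that class had 32.5% in total and 11.2% in 5hmC, a share of 34.4%. The 5hmC value was above 0 in all 139 dense tiles in WT and in 136 in p53-null. In the second set, the 215 dense tiles at 20% or more in the first had a total of 54.3% in WT, with 44.0% 5mC and 10.3% 5hmC (19.01%), and 50.1, 40.9 and 9.18% (18.3%) in p53-null. Sparser tiles had 5hmC shares of 11.8 and 13.2% there. The 5hmC values are differences between separately made libraries, and differences in coverage or conversion between the assays were not tested.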

How the data were processed

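Percent values of total methylation for single CpGs were deposited by the authors as whole numbers, in 1 column per genotype and mESC state. Methylation levels of 200 bp tiles were deposited by the authors as fractions and were multiplied to percent, as were their differences, whose sign was turned to p53-null minus WT. The tools named are Trim Galore, BSMAP and methylKit, with mm9 as the build, per the submitters' processing notes. Their roles, coverage filters, the pooling of libraries and the making of the q-values were not given in the sources used here. Liver rests on 2 columns whose headings name a genotype and no tissue, and 6 further columns of group values with undefined suffixes were not used.

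CpGs were assigned to tiles starting at positions 1, 201, 401 and so on, and tiles were matched by position. Classes (limits 5, 20, 40, 60 and 80%) were mostly formed on other columns than those read. Besides the cases stated, the exceptions are the within-tile ranges, the patterns over naive, RA and liver, and the flanks. The naive medians of tiles under 5% in naive cells are a further exception. Named regions follow a rule: the 10 highest in mESC, the 5 largest changes each way per comparison, the 5 highest in liver, and the 5 with most CpGs at 20% or more in every group, 1 per 1000 bp, of which those that illustrate a pattern are given. Members, limits and rules were chosen with earlier results of these data known. limma, planned only for values per library, was not run. The counting rule was tested on simulated data without noise (3000 tiles, 200 changed, 200 recovered), which checks the counting only. Python 3.11.15, numpy 2.4.6, pandas 2.3.3 and matplotlib 3.10.9 were used.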

Additional observations from a re-analysis of the deposited data

Results flagged for a closer look

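The p53-null minus WT difference over CpG-dense tiles had opposite signs in the 2 mESC states, which is what singled it out. It was 0.185 points in naive cells and -0.132 points after RA. The difference between these 2 values was not tested, since the tables hold 1 pooled value per group.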

How the results depend on the processing

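Values are given in the order naive WT, naive p53-null, RA-treated WT, RA-treated p53-null, liver WT, liver p53-null. With at least 8 listed CpGs per tile, mean levels were 0.435, 0.471, 0.630, 0.615, 1.30 and 1.37%, and shares at 20% or more 0.0715, 0.112, 0.256, 0.235, 1.14 and 1.11%. The p53-null minus WT differences were 0.0362 points in naive and -0.0147 after RA. RA minus naive was 0.195 in WT and 0.144 in p53-null, liver minus naive 0.877 and 0.902, and liver minus RA 0.689 and 0.765. Calls higher and lower in the authors' deposited table were 6 and 1 in the first set, then 1 and 4 in the second. With at least 10, mean levels were 0.381, 0.392, 0.464, 0.467, 0.974 and 1.05%, and shares at 20% or more 0.0173, 0, 0.0345, 0.0345, 0.777 and 0.808%. The p53-null minus WT differences were 0.0107 points in naive and 0.00285 after RA, where the sign turned; the cause was not tested. In liver the difference was 0.0989 points. RA minus naive was 0.0830 in WT and 0.0752 in p53-null, liver minus naive 0.600 and 0.663, and liver minus RA 0.513 and 0.593. Calls higher and lower in the authors' deposited table were 0 and 1 in the first set, then 0 and 0 in the second. With 1 tile per run, mean levels were 1.43, 1.75, 2.88, 2.64, 5.68 and 5.63%, and shares at 20% or more 1.97, 2.36, 4.18, 3.88, 6.78 and 6.501%. The p53-null minus WT differences were 0.319 points in naive, -0.247 after RA and 0.0372 in liver. RA minus naive was 1.45 in WT and 0.887 in p53-null, liver minus naive 4.27 and 3.91, and liver minus RA 2.84 and 3.07. With the median CpG of a tile, mESC levels were 0.603, 0.756, 1.40 and 1.30%. The share past a limit of 10% was 1.71, 1.96, 3.28, 3.004, 5.25 and 5.34%, and past 50% 0.126, 0.281, 0.880, 0.663, 2.71 and 2.75%. At q under 0.01 and 25 points, calls were 3 higher and 1 lower in the first set, then 2 and 3 in the second. Their shares were 0.0169 and 0.00565% of dense tiles in the first set, against 6.52 and 0.104% of all tiles. In the second set they were 0.0105 and 0.0157%, against 0.0476 and 0.493%. At q under 0.05 and any size, calls were 838 higher and 420 lower in the first set, then 90 and 231 in the second. In the first set these were 4.73 and 2.37% of dense tiles, against 32.4 and 1.69% of all tiles. First-set lower calls of any size were thus more frequent in dense tiles than over all tiles. In the second set the shares were 0.471 and 1.21%, against 0.649 and 4.13%. Autosomes only, a grid shifted by 100 bp and, added after seeing the data, tiles with both liver values moved no value beyond the SD over chromosomes and no count by 1.5 times. No paired analysis was possible because only pooled group values are given. Leaving out replicates and the use of tile-table values for named mESC states were not run for this reason or because the columns name no state. Depth is unknown and limits every single-tile value.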

Other observations

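The X chromosome held 288 dense tiles. The lowest p53-null minus WT difference in naive cells among all dense tiles was at chrX:93152201-93152400, with 10 listed CpGs: 30.8% in naive WT against 0.5, 0.7 and 0% in naive p53-null cells and RA-treated WT and p53-null cells, with no liver value. It was the only dense tile with 10 or more listed CpGs at 20% or more in naive WT cells. The authors' deposited table gives a first-set difference of -47.5 points there, larger than in the table of single CpGs.

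A high value in 1 mESC column alone was rare. At 10% or more with the other 3 columns under 2% there were 2 dense tiles in naive WT, 1 in RA-treated p53-null cells and 0 in the other 2 groups.

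The dense tiles with liver differences of 10 points or more were less tied to methylation in mESC than those of mESC: 29 of 128 higher and 31 of 129 lower tiles were at 20% or more in naive or RA-treated cells, compared with 139 of the 144 naive increases. The last count uses the column that also defines the increase. Of all 19625 dense tiles with both liver values, 414 were at 20% or more after RA, on the mean of both genotypes. Both liver shares were above that share.

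Of the dense tiles with both liver values, 31 were between 20 and 80% in all 6 groups, and 135 were at 20% or more in the 4 mESC groups and at 80% or more in both liver groups. At 0 in all 4 mESC columns were 684 of 20673 dense tiles.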
